A study of Mus musculus with 5 samples.

Results

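Among the genomic sites bound by Myc when MycER and YAP were active together, one class carried RNA polymerase II (RNAPol2) and had neither a TEAD nor a YAP peak. Its members were chosen by overlap in the authors' peak lists: every Myc peak was taken that shared at least 1 bp with an RNAPol2 peak and no base with a peak of TEAD or YAP. These peaks, called MP peaks here, numbered 3703 of the 14354 Myc peaks, or 25.8% (95% Wilson interval 25.1 to 26.5). The cells were 3T9MycER fibroblasts, an immortalized line from mouse embryos that expresses MycER, in which Myc is joined to part of the estrogen receptor and is switched on by a drug. They also carried, by transduction, a doxycycline-inducible YAPS127A, a mutant that escapes restraint by the Hippo kinases. MycER was activated with 400 nM 4-hydroxytamoxifen (OHT) and YAPS127A was induced with 2 µg/ml doxycycline in all 4 chromatin immunoprecipitation (ChIP) samples, and the series describes the cells as quiescent and confluent. The growth notes give medium with 10% serum and do not say whether serum was lowered for these samples. The paper's legend for its ChIP-seq panels of this line describes the confluent cells as serum-starved before OHT and doxycycline were given. The sources used here do not say how long the cells were treated or whether they were 1 clone. There was 1 sample for each antibody (Myc, RNAPol2, TEAD and YAP) and none without OHT or doxycycline, so that nothing here shows which peaks depended on either agent. The Myc antibody recognizes Myc itself, so MycER and endogenous Myc cannot be told apart.

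Myc is a transcription factor of the basic helix-loop-helix class that binds DNA with its partner Max. It prefers E-box sequences but is found mostly at promoters and enhancers that are already open and transcribed, and it promotes transcription by RNAPol2 of genes for growth, ribosome production and metabolism. TEAD proteins are the DNA-binding partners of YAP, a coactivator with no DNA-binding domain of its own, and in fibroblasts they are known to occupy many enhancers away from promoters. MP peaks are therefore the part of the polymerase-bearing Myc sites where the TEAD arm of this circuit was not called. Their sequences and genes are not given here, because no genome or annotation of the build of the files, mm9, was used, and regions are named by their mm9 coordinates.

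The ChIP libraries held between 20441605 (Myc) and 38345189 (RNAPol2) tags, with 1 deeper control library for all 4, and the lists held 14354 Myc, 49650 RNAPol2, 48571 TEAD and 10293 YAP peaks. Every value below comes from 1 library per antibody, so that differences between classes are given as descriptions, without a replicate error or a test. Intervals of shares cover counting error over peaks, and intervals of medians cover the choice of peaks within these libraries. Tags amplified by PCR without molecular identifiers are not independent molecules, and depth differed between the antibodies. The lack of a TEAD or YAP peak means that none was called at p of 1e-05, not that the factor was absent. Of all Myc peaks, 88.2% overlapped RNAPol2 and 30.4% overlapped neither TEAD nor YAP. These are the overlaps that define the class, and they are given as a description.

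MP peaks were compared with the classes most like them. MPT peaks held Myc, RNAPol2 and TEAD without YAP, and numbered 6322. YMPT peaks held all the factors and numbered 2617. M peaks held Myc without any of the other factors and numbered 661. MP peaks made up 29.2% of the Myc peaks with RNAPol2 (28.45 to 30.03). Seen from the other side, 84.9% of the 4364 Myc peaks without TEAD and YAP overlapped RNAPol2 (83.8 to 85.9), against 89.7% of the 9990 Myc peaks with TEAD or YAP (89.1 to 90.3). Myc sites thus carried polymerase in a large majority of cases whether or not TEAD or YAP had been called.

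Myc enrichment at MP peaks ranged widely. The fold enrichment, which is the height of the ChIP signal at the summit over the local control level, ran from 1.87 to 84.81. Its median was 8.89 (8.83 to 9.21), with quartiles at 6.67 and 13.48. MPT peaks were higher, with a median of 11.12 (10.8 to 11.33), so that the ratio of the medians was 0.799 (0.779 to 0.853). YMPT peaks had the same median fold as MP peaks, 8.89, and M peaks lay lower, at 6.67. By the height of the signal alone, the pileup, MP peaks lay below YMPT peaks, with medians of 31 (30 to 32) and 35 tags (34 to 36). The median control level was 1.001 times its lowest at MP peaks and 1.175 times at YMPT peaks. Strong binding was less frequent than in the list as a whole: 399 MP peaks, or 10.8% (9.82 to 11.8), reached a Myc fold of 20, against 14.7% of all Myc peaks and 20.8% of MPT peaks (19.8 to 21.8). A fold of 10 was reached by 41.8% of MP peaks (40.2 to 43.4), nearer to the 44.7% of all Myc peaks. A fold of 50 was reached by 23 MP peaks, or 0.621%, against 1.37% of all Myc peaks.

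MP peaks were also narrow. Their median width was 544 bp (533 to 555), compared with 743 bp for MPT, 668 bp for YMPT and 370 bp for M peaks. Widths of 1000 bp or more were found at 387 MP peaks, or 10.5% (9.51 to 11.48), against 19% of all Myc peaks and 26.5% of MPT peaks. A narrow peak has fewer bases in which to meet a TEAD peak, so width and class are tied by the rule itself. When Myc peaks with RNAPol2 were split into quintiles of width, the difference in Myc height between MP and MPT peaks was small. In the narrowest quintile, from 288 to 418 bp, the median Myc folds were 6.48 for MP and 6.25 for MPT peaks. In the middle quintile, from 570 to 758 bp, they were 11.23 and 10.71, and in the widest, from 1025 bp, they were 18.39 and 19.69. Averaged over the quintiles the ratio was 0.992, compared with 0.799 without regard to width. Against YMPT peaks of like width, MP peaks were the higher class by fold in each quintile. Their medians ran from 6.48 against 5.89 in the narrowest to 18.39 against 17.86 in the widest, and the averaged ratio was 1.12. Pileup was not compared within quintiles.

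**Figure D1:**
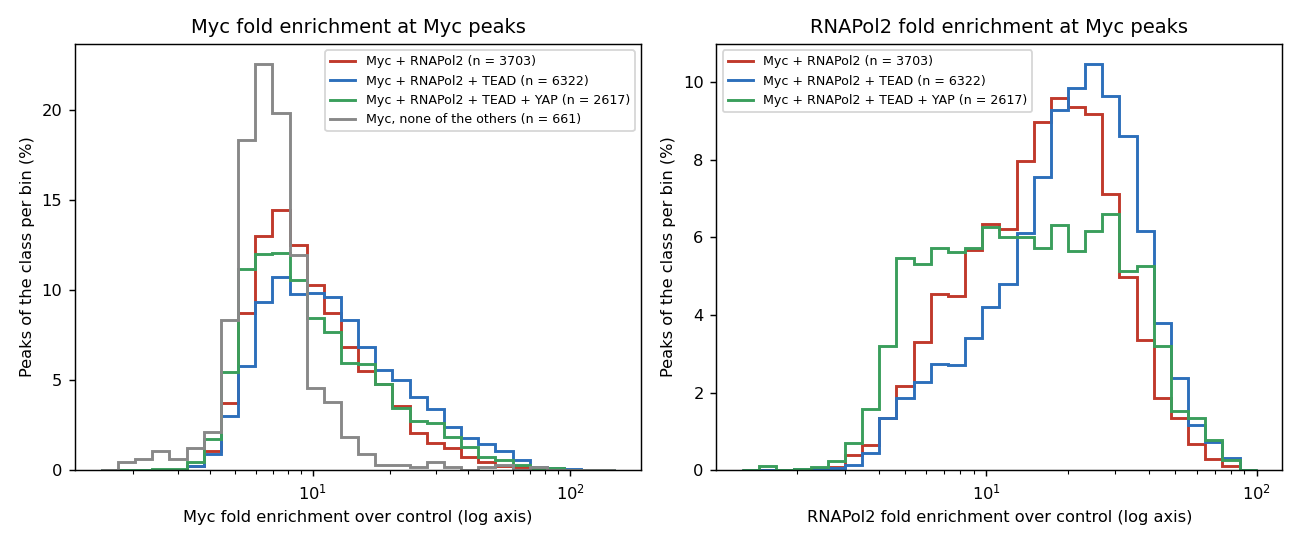
Distribution of Myc fold enrichment (left) and of the fold enrichment of the RNAPol2 peak overlapped (right) for classes of Myc peaks; horizontal axes are logarithmic and vertical axes give the percentage of the peaks of a class in each bin. The MP class (Myc + RNAPol2, red) has medians of 8.89 for Myc and 16.74 for RNAPol2, both below the 11.12 and 21.05 of the MPT class (blue). The YMPT class (green), which also has TEAD, has medians of 8.89 and 14.23.

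Polymerase at MP peaks was well above that at RNAPol2 peaks without Myc. The median fold enrichment of the RNAPol2 peak overlapped was 16.74 (16.33 to 17.16), with quartiles at 10.2 and 24.58. The 37934 RNAPol2 peaks without a Myc peak had a median of 5.02. The former value counts each Myc peak and takes the highest RNAPol2 peak it met, while the latter counts each RNAPol2 peak. A wide RNAPol2 peak also has more bases in which to meet a Myc peak. The median RNAPol2 width was 1018 bp at MP peaks, against 543 bp over the RNAPol2 list. The part of this in the difference was not tested. Among Myc peaks, MP peaks stood by fold between the classes with TEAD: the RNAPol2 median was 21.05 at MPT peaks (20.7 to 21.43) and 14.23 at YMPT peaks (13.6 to 14.93). By RNAPol2 pileup MP and YMPT peaks were close, with medians of 88 (86 to 90) and 86 tags (82 to 90). By fold, MP peaks were also higher than YMPT peaks in the narrower quintiles of Myc peak width. In the widest quintile the order was the other way, 25.95 at MP and 28.26 at YMPT peaks. The distributions differed in form as well. RNAPol2 fold spread more widely at YMPT peaks, with quartiles at 7.71 and 26.29, against 10.2 and 24.58 at MP peaks. An RNAPol2 fold under 5 was found at 125 MP peaks, or 3.38% (2.84 to 4.01), against 4.08% of all Myc peaks with RNAPol2. The share was 2.8% of MPT peaks (2.42 to 3.24) and 8.18% of YMPT peaks (7.19 to 9.29). A fold of 20 or more was found at 38.5% of MP peaks (36.9 to 40.1), against 45.3% of all Myc peaks with RNAPol2.

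The lower RNAPol2 height of MP than of MPT peaks was found in each quintile of Myc peak width. It was 12.77 against 13.21 in the narrowest quintile, 17.65 against 18.63 in the middle one and 25.95 against 29.09 in the widest. The averaged ratio was 0.914, compared with 0.795 without regard to width (0.762 to 0.829). Within the MP class, Myc and RNAPol2 heights rose together. From the lowest to the highest quartile of Myc fold, the median RNAPol2 fold was 12.79, 14.23, 16.74 and 22.81. The rank correlation over the 3703 MP peaks was 0.316, compared with 0.487 over MPT peaks and 0.53 over YMPT peaks. The points share the libraries and the control, and the difference between these values was not tested.

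The share of MP peaks changed with the height and width of the sites. Of Myc peaks with RNAPol2, MP peaks made up 30.0% in the lowest decile of Myc fold (27.5 to 32.6) and 36.4% in the third (33.8 to 39.1). In the highest decile they made up 16.1% (14.2 to 18.2), where 64.6% were MPT peaks. By RNAPol2 fold the share was 27.3% in the lowest decile, 35.3% in the third and 18.4% in the highest (16.3 to 20.6). By width it fell from 43.8% in the narrowest decile (41.1 to 46.55) to 10.2% in the widest (8.63 to 11.97). The sites without TEAD were thus most frequent among narrow peaks of low to middle height. Height and width moved together, with a rank correlation of 0.698 between Myc fold and width over MP peaks, and which of them goes with the lack of TEAD was not tested.

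**Figure D2:**
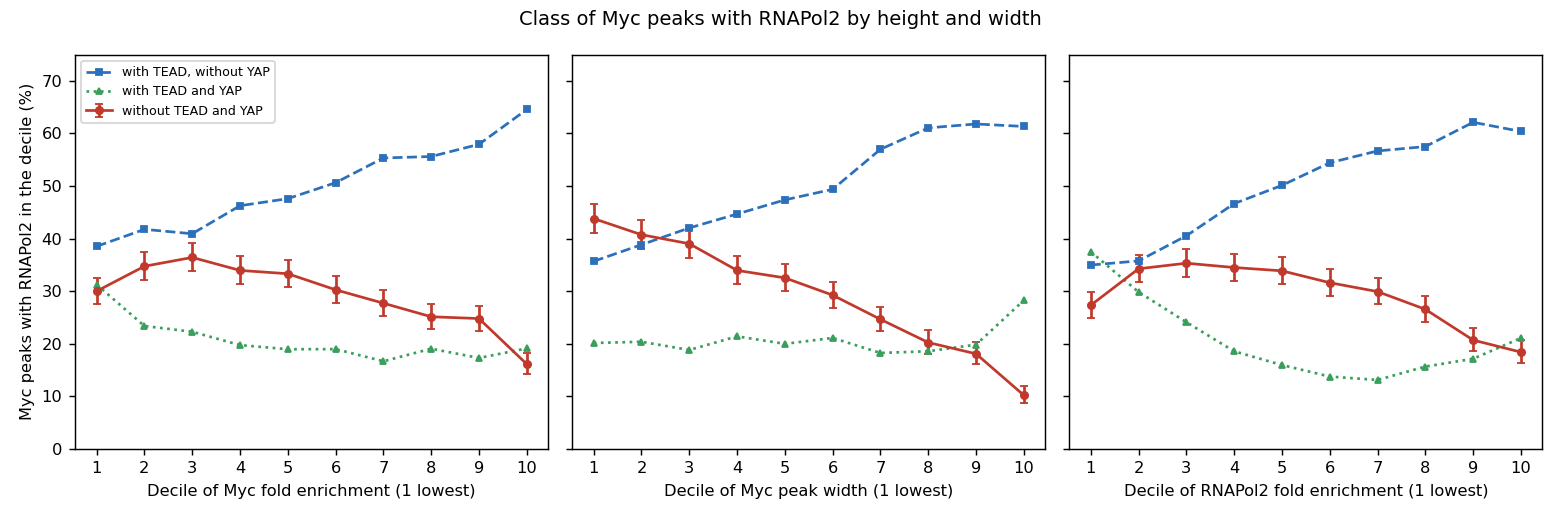
Percentage of Myc peaks with RNAPol2 that were MP peaks (without TEAD and YAP, red, with 95% Wilson intervals), MPT peaks (blue) or YMPT peaks (green), by decile of Myc fold (left), Myc peak width (middle) and RNAPol2 fold (right), decile 1 being the lowest. The red series ends at 16.1%, 10.2% and 18.4% in the highest deciles, and along width it falls from 43.8%.

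The strongest MP peaks were named by Myc fold. A fold of 84.81 with a pileup of 267 tags was found at both chr4:155365732-155366864 and chr5:147888892-147889954. The RNAPol2 folds there were 31.81 and 35.37, and the Myc summits lay 119 and 149 bp from the nearest RNAPol2 summit. The former region was far from TEAD, with the nearest TEAD peak 47756 bp away, while at the latter a TEAD peak began 461 bp from the Myc peak. The peak at chr2:172825418-172826532 reached a Myc fold of 77.19 with an RNAPol2 fold of 36.21, and its nearest TEAD peak was 20713 bp away.

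The next in order were chr7:28954563-28955876 (Myc fold 72.42, TEAD 945 bp away) and chr8:128257947-128259331 (71.47, TEAD 91723 bp away). They were followed by chr8:13337906-13338771 (66.43), chr14:115441284-115442405 (62.89) and chr1:191745445-191746222 (61.94). The last of the 10 were chr11:102050426-102051272 (61.68) and chr16:11202045-11203879 (60.03). High Myc did not always go with high polymerase among them. The RNAPol2 fold was 13.43 at chr8:128257947-128259331 and 13.66 at chr11:102050426-102051272, both under the MP median, and 42.49 at chr16:11202045-11203879. All 10 had a YAP peak no nearer than 25199 bp.

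The MP peaks of highest RNAPol2 fold had another form. They were mostly small Myc peaks inside broad polymerase domains, with a TEAD peak close by. At chr13:81021831-81022433 the RNAPol2 fold was 79.12 in a peak of 5051 bp, with a Myc fold of 8.58 and TEAD 181 bp away. At chr1:162966624-162966944 it was 78.28 in a peak of 8932 bp, with a Myc fold of 4.76 and the RNAPol2 summit 1461 bp from the Myc summit. The others were chr5:143667517-143667860, chr11:106640295-106640991 and chr17:34255116-34255446, with RNAPol2 folds of 77.63, 75.51 and 74.1 in peaks of 10855, 12282 and 15064 bp. Of these, chr11:106640295-106640991 had a Myc fold of 24.07 and its RNAPol2 summit 9012 bp away. In all 5 the nearest TEAD peak lay between 181 and 857 bp from the Myc peak. The nearest YAP peak was 214 bp away at chr11:106640295-106640991, 2718 bp at chr17:34255116-34255446 and 3520 bp at chr5:143667517-143667860. At the others it was 66018 bp away or more.

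The widest MP peak spanned 2118 bp, at chr5:114221274-114223391, with a Myc fold of 20.15 and an RNAPol2 fold of 26.75. The other wide ones were chr12:77469908-77471962, chr6:148892805-148894849, chr7:66483223-66485204 and chr7:17368244-17370148, with Myc folds of 13.66, 39.7, 24.78 and 30.03. At the low end, a Myc fold of 1.87 was called at chr11:3093023-3093402. Its pileup was 140 tags, so the control level there was far above that of most peaks. The next lowest were 3.29 at chr3:60332103-60332435 and 3.42 at chr13:120276758-120277066.

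Myc and polymerase summits lay close together at MP peaks. The median distance from the Myc summit to the nearest RNAPol2 summit was 116 bp (110 to 124), compared with 112 bp at MPT peaks (109 to 117) and 129 bp at YMPT peaks (123 to 138). The summits lay within 100 bp of each other at 45.8% of MP peaks (44.2 to 47.4), against 45.4% of all Myc peaks with RNAPol2, so this share did not stand apart. Further out the classes parted: 82.8% of MP summits (81.6 to 84.0) and 89.0% of MPT summits (88.2 to 89.7) were within 500 bp, against 86.8% of all Myc peaks with RNAPol2. Within 250 bp the share was 69.7% (68.2 to 71.2), against 72.3%. Summits over 1000 bp apart were found at 222 MP peaks, or 6.0% (5.28 to 6.81), against 4.68% of all Myc peaks with RNAPol2 and 3.54% of MPT peaks (3.12 to 4.03). The Myc summit lay inside the RNAPol2 peak at 96.6% of MP peaks, against 97.4% of all Myc peaks with RNAPol2, and the whole Myc peak did so at 63.5%, against 66.5%. The RNAPol2 summit lay inside the Myc peak at 75.9% of MP peaks (74.5 to 77.3) and 86.9% of MPT peaks (86.0 to 87.7), against 82.6% of all Myc peaks with RNAPol2, and MP peaks were the narrower of these. Polymerase summits fell on either side about equally, 1863 to the left of Myc and 1826 to the right along the chromosome. Without gene starts, direction of transcription was not known.

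**Figure D3:**
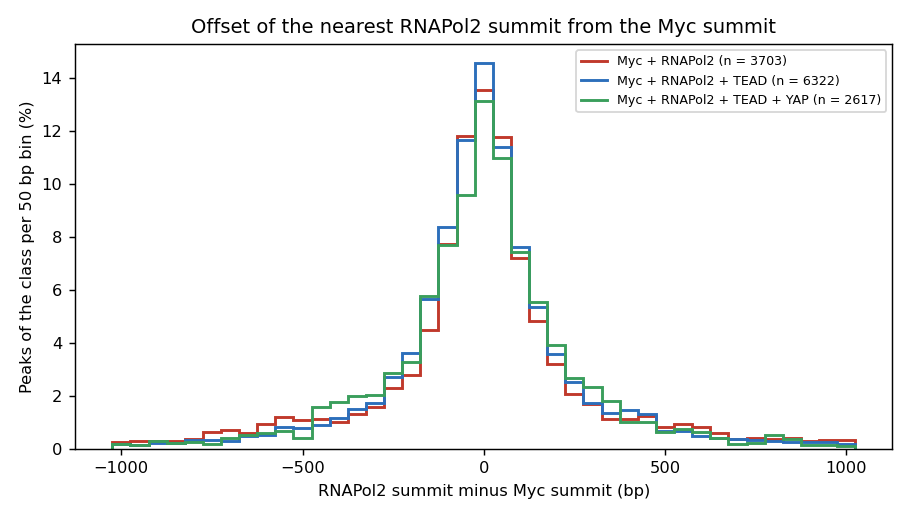
Position of the nearest RNAPol2 summit relative to the Myc summit (horizontal axis, bp along the chromosome) as the percentage of the peaks of each class per 50 bp bin. The 3 classes peak at 0 bp and are close to symmetric, with median distances of 116 bp for MP (red), 112 bp for MPT (blue) and 129 bp for YMPT peaks (green).

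TEAD was often near MP peaks although it did not overlap them. The median gap between an MP peak and the nearest TEAD peak was 5058 bp (4540 to 5644). This value depended strongly on the rule and the lists, and was 53430 bp with lists of equal length. It was 2568 bp when 50% of the shorter peak had to be shared, and 570.5 bp when summits within 250 bp replaced overlap. Under the latter rules a peak could share bases with TEAD and still be counted, so those medians include overlapping peaks. With the full lists the distances fell into a near and a far group. One mode lay between 428 and 684 bp, which held 7.78% of MP peaks, and another between 7152 and 29245 bp. In between, the bin of the same logarithmic width from 1094 to 1749 bp held 4.92%. A TEAD peak lay within 1000 bp of 1141 MP peaks, or 30.8% (29.35 to 32.32), and within 10000 bp of 61.1% (59.6 to 62.7). M peaks, without polymerase, had a TEAD peak within 1000 bp less often, at 19.1% (16.25 to 22.23), and 3.63% of them lay in the bin of the near mode. Over all Myc peaks, which include those that overlap TEAD, the shares were 78.3% and 87.8%. YAP was far from most MP peaks, with a median gap of 61332 bp (58359 to 64561). A YAP peak lay within 1000 bp of 204 of them, or 5.51%, against 25.6% of all Myc peaks, which include those that overlap YAP. Among M peaks this share was 3.48% (2.33 to 5.17). The median gap to YAP was 48829 bp at MPT peaks and 51461 bp at M peaks, so a wide gap was not particular to the MP class.

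Stronger MP peaks had TEAD close by less often, a description that the rule itself shapes. Width rose with Myc fold, from a median of 366 bp in the lowest quartile to 815 bp in the highest, and a wide peak with TEAD close by would more often overlap it and be left out. In the lowest quartile of Myc fold 39.4% of MP peaks had a TEAD peak within 1000 bp (36.3 to 42.6), and the shares in the next quartiles were 32.8%, 30.3% and 20.7% (18.2 to 23.5). The median TEAD gap rose from 2474 bp in the lowest quartile to 7734 bp in the highest. By RNAPol2 fold no such order was seen, with shares of 30.2%, 28.2%, 30.0% and 34.9% from the lowest to the highest quartile. The TEAD peaks that lay within 250 bp of the 387 nearest MP peaks were of ordinary height, with a median TEAD fold of 7.0, compared with 7.34 for TEAD peaks at MPT peaks.

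**Figure D4:**
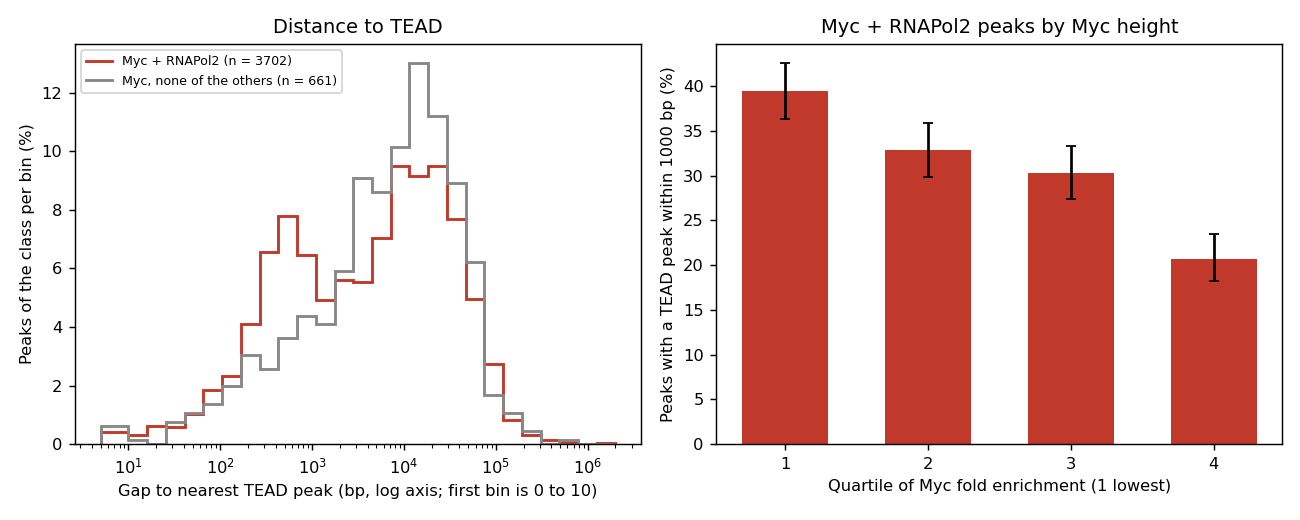
Left, gap from a Myc peak to the nearest TEAD peak (horizontal axis logarithmic, bp) for MP peaks (Myc + RNAPol2, red; 3702 of 3703 had a TEAD peak on their sequence) and M peaks (Myc without the other factors, grey), as the percentage of the peaks of the class per bin. Right, percentage of MP peaks with a TEAD peak within 1000 bp by quartile of Myc fold, with 95% Wilson intervals; it falls from 39.4% to 20.7%.

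MP peaks close to TEAD had wider polymerase peaks and more distant summits than those far from it. MP peaks with TEAD less than 250 bp away, 385 in number, had a median RNAPol2 peak width of 1342 bp and a median distance between Myc and RNAPol2 summits of 230 bp. At the 755 MP peaks with TEAD at least 250 and under 1000 bp away, which hold the near mode, these medians were 1216 bp and 185 bp. At the 1124 MP peaks with TEAD at least 1000 and under 10000 bp away they were 987 bp and 103 bp. The 1438 MP peaks with TEAD at least 10000 bp away had medians of 945.5 bp and 99 bp. From near to far, the median RNAPol2 folds of these groups were 18.68, 16.94, 16.12 and 16.77, which is not a steady fall. The median Myc folds in the same order were 8.26, 8.08, 9.21 and 9.53. Part of the near group shared a polymerase domain with TEAD: at 763 MP peaks, or 20.6% (19.3 to 21.9), the RNAPol2 peak overlapped a TEAD peak elsewhere along its length, and at 173, or 4.67%, it overlapped a YAP peak. The shares over all Myc peaks with RNAPol2, most of which overlap TEAD themselves, were 76.5% and 24.9%. Of all RNAPol2 peaks 71.9% overlapped no TEAD peak, and of those without Myc 13.7% overlapped one. At 2931 MP peaks, or 79.15%, the RNAPol2 peak was free of both factors. These had a higher median Myc fold (9.23 against 7.695), a lower RNAPol2 fold (15.42 against 22.19), narrower polymerase peaks (893 against 1924 bp) and closer summits (94 against 525.5 bp) than the 772 with TEAD or YAP in the same domain. A broad RNAPol2 peak has more bases in which a TEAD peak can lie, and the part of its width in these differences was not tested.

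Broad polymerase domains were few in the class, as in the classes most like it. An RNAPol2 peak of 5000 bp or more was found at 140 MP peaks, or 3.78% (3.21 to 4.44), against 4.71% of all Myc peaks with RNAPol2. The share was 4.56% of MPT peaks (4.07 to 5.10) and 6.46% of YMPT peaks (5.58 to 7.46). At these 140 the median RNAPol2 fold was 39.99, the median Myc fold was 7.945 and the median distance between summits was 978.5 bp. The MP peaks lay in 3572 RNAPol2 peaks, of which 3379 held 1 MP peak, 187 held 2 and 6 held 3. Conversely, 68 MP peaks, or 1.84% (1.45 to 2.32), spanned 2 RNAPol2 peaks or more, against 1.51% of all Myc peaks with RNAPol2.

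Most MP peaks lay far from each other along the genome. The median distance from an MP summit to the next MP summit was 76389 bp (69296 to 83538). Another MP summit lay within 1000 bp of 445 MP peaks, or 12.02%. The like share was lower, 5.38%, among the more numerous MPT peaks. Among all Myc peaks it was 13.2%, but there a peak of any class counts as the neighbour and the list is denser. For 813 MP peaks, or 22.0%, the nearest Myc summit of any class was within 1000 bp, against 13.2% of all Myc peaks. It belonged to another MP peak in 433 cases and to a peak with TEAD in 355. The RNAPol2 peak held more than 1 Myc peak at 21.4% of MP peaks (20.1 to 22.7), against 17% of all Myc peaks with RNAPol2 and 14.7% of MPT peaks (13.9 to 15.6). Grouped at spacings of up to 10000 bp, 2880 MP peaks stood alone and 348 runs held 2.

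The longest runs held 5 MP peaks, at chr11:120096927-120102000 and chr7:16882028-16896408, each over 4 RNAPol2 peaks. Myc folds ran from 4.82 to 13.34 in the former and from 5.72 to 11.44 in the latter. The RNAPol2 folds ran from 4.14 to 39.35 and from 10.05 to 26.16. Of the 3 runs with 4 MP peaks, the first in order was chr18:84255955-84259111, with Myc folds from 5.72 to 11.44. The other runs of 4, at chr2:29921140-29933987 and chr6:83051626-83066530, reached Myc folds of 26.87 and 17.42. The runs thus mixed Myc peaks below and above the MP median of 8.89.

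The share of MP peaks differed between chromosomes by more than counting error. Chromosome 15 had the lowest, 12.3% of its 920 Myc peaks (10.3 to 14.6), followed by chromosome 19 with 14.2% (11.7 to 17.1) and chromosome 9 with 17.3% (15 to 19.84). Chromosome 12 had the highest, 46.8% of its 363 Myc peaks (41.8 to 52.0), followed by the X chromosome with 44.1% (38.4 to 49.97) and chromosome 14 with 41.4% (36.4 to 46.6). These are the extremes of 20 chromosomes with at least 100 Myc peaks. The height of the MP peaks moved little beside this: their median Myc fold per chromosome lay between 8.36 and 9.85, and their median RNAPol2 fold between 14.7 and 18.84. The share of RNAPol2 peaks without Myc that overlapped TEAD ran from 10.7% on chromosome 5 to 18.1% on chromosome 14, and its rank correlation with the MP share was 0.466. The median TEAD pileup went the other way, with a rank correlation of -0.398, and was 27 tags on chromosome 12, 26 on X and 32 on chromosome 15. The rank correlation of the MP share was -0.621 with the number of Myc peaks of the chromosome and -0.689 with their median pileup. MP peaks enter both of these themselves.

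Signal levels moved with this share. The median RNAPol2 pileup at Myc peaks was 85 tags on chromosome 12, 90 on X and 91 on chromosome 14, compared with 113 on chromosome 15 and 127.5 on chromosome 19. Over the 20 chromosomes its rank correlation with the share of MP peaks was -0.794, and it was -0.873 without chromosomes 10, 15 and 19, where the control level stood highest. MP peaks have lower polymerase than MPT peaks and enter this median themselves, so the relation is in part built in. The median Myc control level, the local background that the peak caller divides by, was 1.49 times its lowest value on chromosome 15, 1.3 times on chromosome 19 and 1.4 times on chromosome 10, but chromosome 10 had an MP share of 33.3% (29.7 to 37.1). Over the 20 chromosomes the rank correlation of control level with MP share was -0.552, and it was -0.48 without these 3. Over all MP peaks 61.2% lay within 5% of the lowest control level (59.6 to 62.7), against 47.7% of all Myc peaks and 33.8% of YMPT peaks (32.0 to 35.65). In the same order, of Myc peaks with RNAPol2, 39.2% were MP peaks in the lowest quintile of control level and 19.7% in the highest. The part of control level and signal level in the differences between chromosomes was not tested. The control library also covers chromosomes present in more copies more deeply, and the part of copy number was not tested.

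**Figure D5:**
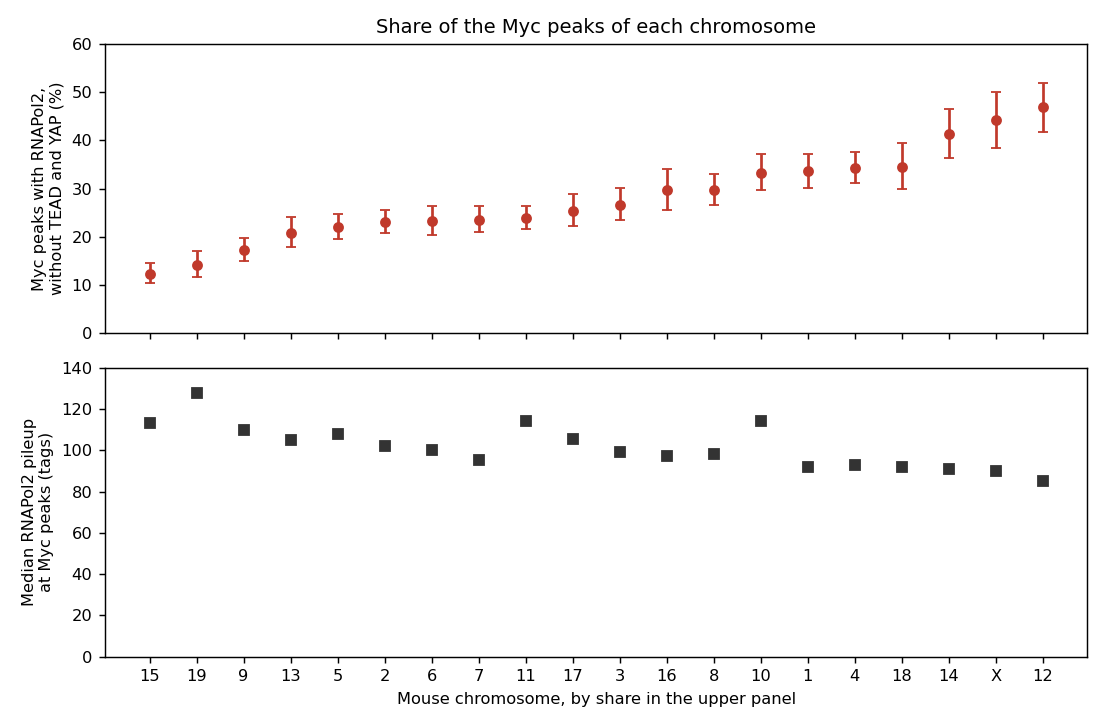
Upper panel, percentage of the Myc peaks of each chromosome that were MP peaks (Myc with RNAPol2, without TEAD and YAP), with 95% Wilson intervals, for the 20 chromosomes with at least 100 Myc peaks; lower panel, median RNAPol2 pileup in tags at the Myc peaks of the same chromosome. The share runs from 12.3% on chromosome 15 to 46.8% on chromosome 12, where the pileup is 113 and 85 tags.

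Membership of the class depended on how far down the lists were read, with all 4 cut together, and cuts of the TEAD and YAP lists alone were not tried. Keeping the stronger 50% of each list gave 3695 such peaks, but 1659 of them, which are 44.9% of these and 44.8% of the MP peaks, were shared with the full lists. With the strongest 10293 peaks of each list, the length of the YAP list, there were 5716, of which 1951 (34.1% of these and 52.7% of the MP peaks) were shared. Requiring that no TEAD or YAP peak lay within 1000 bp left 2551, all MP peaks, with a median Myc fold of 9.53. At the edge of the rule, the shortest RNAPol2 overlaps among MP peaks were 1, 3 and 6 bp, at chr10:44824214-44824501, chr5:106160277-106160899 and chr1:93697035-93697525. TEAD touched but did not overlap the MP peaks at chr10:17443427-17444243 and chr13:100894476-100895352, and it was 1 bp from chr2:94246212-94246896. Peaks at chr14:65271400-65271827, chr15:36721327-36721779 and chr8:72149124-72149470 were left out by a single shared base, with Myc folds of 7.15, 5.32 and 7.51. There were 86 MP peaks with a gap to TEAD or YAP of at most 50 bp, and 131 Myc peaks with RNAPol2 were left out by at most 50 bp of overlap. Their median Myc folds were 8.25 and 7.74, and their median RNAPol2 folds 18.57 and 17.79, so the values just inside and just outside the rule were close.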

How the data were processed

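Peak lists of 4 ChIP-seq samples were used, grouped by their titles, and the input sample was not analysed here. Cells were fixed with 1% formaldehyde, after DSG in the case of YAP. BWA 0.6.2, MACS2 2.0.9, SAMtools and mm9 appear in the notes of the submitters on processing. Per the file headers, each list was made from 1 library with narrow peaks, a p-value cutoff of 1e-05 and at most 2 tags per position, and with the bigger library brought down to the size of the other. The pileup deposited by the authors is the signal of extended tags at the summit. The −log10 p-value and q-value that the authors deposited compare it with a local background, and their fold enrichment is its ratio to that background. Positions are 1-based. The control level was computed as pileup over fold, and its floor is a genome average.

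Overlap meant at least 1 bp. Where a Myc peak met several RNAPol2 peaks, the highest fold and the nearest summit were taken. Gaps count the bases between peaks. Shares have 95% Wilson intervals, and medians have 95% intervals from binomial order statistics. The range of a ratio runs from the low end of the upper median over the high end of the lower median to the reverse. No p-value was computed, since each antibody had 1 library. Named regions are the 10 MP peaks of highest Myc fold, the 5 of highest RNAPol2 fold, the 5 widest, the 3 of lowest Myc fold, the 3 longest runs (both further runs of 4 were added after their values were seen) and the 3 peaks nearest each edge of the rule. The class, the measures and this rule were chosen with earlier results of these data known. Alternatives changed the overlap, the lists, the chromosomes or the measure of height. Python 3.11.15, numpy 2.4.6, pandas 2.3.3, scipy 1.17.1 and matplotlib 3.10.9 were used, and the routines were tested on simulated data. The gene table at hand is of another assembly, so motifs and gene starts were not analysed here.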

Additional observations from a re-analysis of the deposited data

How the results depend on the processing

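Ratios are of MP to MPT medians unless said otherwise, and distances are medians at MP peaks. Under the rules of 50% sharing and of summits within 250 bp, a counted peak could still share bases with TEAD. The TEAD gaps of those settings include such peaks. Where 50% of the shorter peak had to be shared, the Myc ratio was 0.7771, the TEAD gap 2568 bp, the spacing between MP summits 65495 bp and the share on chromosome 15 15.11%. With summits within 250 bp in place of overlap, the median Myc fold was 10.48, the Myc ratio 0.9624 (1.269 to YMPT), the RNAPol2 ratio 0.9295, the width ratio 0.9627, the summit distance 77 bp and the TEAD gap 570.5 bp. Without TEAD or YAP within 1000 bp, these were 9.53 for the Myc fold, 0.8991 (1.075 to YMPT) for the Myc ratio, 0.8028 for width, 101 bp for summits and 12008 bp for TEAD, and the spacing was 100849 bp. With the stronger 50% of each list the Myc fold was 14.93, the Myc ratio 0.9402 (1.093 to YMPT), the RNAPol2 ratio 0.908, the width ratio 0.8694, the summit distance 102 bp and the TEAD gap 20750 bp. At a −log10 q of at least 10 they were 11.68, 0.9197 (1.115 to YMPT), 0.8777, 0.8424, 108 bp and 13680 bp in that order, with a spacing of 63421 bp. With lists of equal length there were 5716 MP peaks, the Myc fold was 13.34, the Myc ratio 0.9871 (1.071 to YMPT), the RNAPol2 ratio 0.9145, the width ratio 0.9304, the TEAD gap 53430 bp and the spacing 47335 bp. Fewer peaks enter by construction in these last 3 settings, and the other causes were not tested. The Myc ratio was 0.775 by pileup (0.8857 to YMPT), 0.709 by −log10 p (0.9062 to YMPT) and 0.9916 averaged over width quintiles (1.125 to YMPT). By −log10 p, MP peaks made up 28.06% of the lowest decile of all Myc peaks, against 22.01% by fold. The alternatives added after seeing the data gave RNAPol2 ratios of 0.9145 averaged over width quintiles and 0.7513 at a control level within 5% of its lowest. The other 46 values computed lay within the interval or range of the reported value, or moved by less than 1.5 times for the number of MP peaks. The Myc ratio to YMPT peaks, 1 as reported, lay below 1 by pileup and by −log10 p. Where 50% of the shorter peak had to be shared it was 0.9653 (0.9285 to 1.028), within the range of the reported value (0.9587 to 1.043). It lay above 1 in the other settings for which it is printed above, so the order of these classes depended on the setting. Motif windows and gene start limits were not run, since no sequence or gene of this build was used. No paired analysis was possible because each antibody had 1 sample and no test was made. Depth differed between antibodies, and a TEAD or YAP peak too low to be called at this depth would be counted as missing. No replicate could be left out.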
